A study of Mus musculus with 2 samples.

Results

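The MAP kinase cascade and the dual-specificity phosphatases were read from RNA-seq of mouse dorsal root ganglion (DRG) sensory neuron preparations. Members were all genes whose symbol is Mapk, Map2k, Map3k, Map4k or Dusp followed only by a number, a naming rule that uses no measured value. The rule took in 65 of the 24411 genes listed, on 97 of the 35034 transcript rows, and TPM, an abundance corrected for transcript length and library size, was summed over the rows of a gene. There were 13 MAPK, 7 MAP2K, 16 MAP3K, 5 MAP4K and 24 DUSP genes.

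The study compared DRG sensory neurons of immunized and control mice to ask where the antibody found in these neurons comes from. Male C57BL/6 mice (C57BL/6J in the study's methods) aged 6 to 8 weeks received intraperitoneal 50% alum on days 0 and 14, either by itself (alum group) or together with the foreign protein keyhole limpet hemocyanin (KLH) at 100 µg per injection (alum + KLH group), and DRGs were taken 14 days after the second injection. Thoracic and lumbar ganglia of 10 mice per group were pooled, dissociated with enzymes, passed over an albumin gradient and depleted of B lymphocytes with beads, and each pool gave 1 library. The label of the control names it both naïve and alum alone, and it is called alum here. With 1 library per group no difference below has a replicate check, no test of the immunization could be made, and the files hold TPM without read counts, so no counting interval is given.

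A MAP kinase cascade is a relay of protein kinases. MAP4Ks and small GTPases switch on MAP3Ks, a MAP3K phosphorylates a MAP2K, and the MAP2K phosphorylates a MAP kinase on a threonine and a tyrosine of its activation loop. The best known branches end in ERK, JNK and p38, and in DRG neurons they carry growth factor, injury and inflammatory signals. The dual-specificity phosphatases (DUSPs) include the MAP kinase phosphatases (MKPs), which remove both phosphates, and a larger group of atypical enzymes with other substrates. RNA levels do not report the phosphorylation state of any of these proteins.

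The activation loop motif differs between the ERK, JNK and p38 genes, so the coding bases around it are shown for 8 of the 10 MAP kinase genes above 3 TPM. Each run has 27 bases, read 5′ to 3′ on the coding strand from GENCODE M21 transcripts of GRCm38 (the same assembly as mm10), and the capitals mark the 3 codons of the loop motif.
Mapk3: ggctttctgACGGAGTATgtggccaca
Mapk8: tttatgatgACGCCTTATgtggtgact
Mapk9: tttatgatgACTCCCTATgtggtaact
Mapk10: ttcatgatgACTCCGTATgtggtgacg
Mapk11: gaggagatgACCGGATATgtggccaca
Mapk12: agtgagatgACAGGATATgtggtaacc
Mapk14: gatgagatgACAGGCTACgtggctacc
Mapk6: ggtcatcttTCTGAAGGAttggttacc
The capitals encode Thr-Glu-Tyr in Mapk3 (ERK1), Thr-Pro-Tyr in the JNK genes Mapk8, Mapk9 and Mapk10, and Thr-Gly-Tyr in the p38 genes Mapk11, Mapk12 and Mapk14. Mapk6, the atypical kinase ERK3, has Ser-Glu-Gly in this place and so lacks the tyrosine. Mapk8 and Mapk9 differed at 3 of the 27 bases and Mapk10 at 4 from each of them, so the JNK RNAs are distinct here although the motif is the same.

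The MKPs and most other DUSPs share a catalytic loop with the residues His-Cys-(any 5)-Arg, in which the cysteine takes up the phosphate. It is shown for the 4 DUSP genes to which the results return, with 24 bases each from the same source and the His, Cys and Arg codons in capitals.
Dusp1: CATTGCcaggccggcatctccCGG
Dusp6: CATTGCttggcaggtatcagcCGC
Dusp3: CATTGCcgcgagggctacagcCGC
Dusp23: CACTGTgccctaggctttggcCGC

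Both pools matched their label as sensory neuron preparations that also hold glia. All 10 pan-neuronal markers were above 3 TPM, the level the study took as detected, with summed levels of 9917 TPM in alum and 10006 TPM in alum + KLH. Satellite glial markers (6 of 7 above 3 TPM) summed to 1777 and 1654 TPM, and Schwann cell markers (5 of 7) to 1884 and 1855 TPM. None of 8 macrophage, 5 B cell, 6 muscle or 5 erythroid markers was above 3 TPM in both pools, although the globin genes Hba-a1 and Hbb-b1 were at 4.15 and 4.28 TPM in alum (1.62 and 1.02 TPM in alum + KLH). Summed B cell markers were 0.754 and 0.234 TPM and summed erythroid markers 9.27 and 2.90 TPM. Of the 6 markers each for T cells, endothelium and fibroblasts, 1, 1 and 3 were above it in both pools, with sums of 14.1 and 14.7, 12.8 and 9.02, and 88.1 and 88.4 TPM. Values below are therefore levels in a mixture, and fewer cells of a type cannot be told apart from less RNA per cell.

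Of the 65 members, 49 were above 3 TPM in both pools and 16 in neither. Members summed to 2988 TPM in alum and 2914 TPM in alum + KLH. MAP kinases themselves made up the largest block with 1414 and 1362 TPM, ahead of the MAP2Ks with 601 and 599.7 TPM and the DUSPs with 582 and 568 TPM. MAP3Ks summed to 223 and 218 TPM and MAP4Ks to 168 and 166 TPM, so in both pools the upper tiers of the cascade summed to less RNA than the lower tiers.

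**Figure D1:**
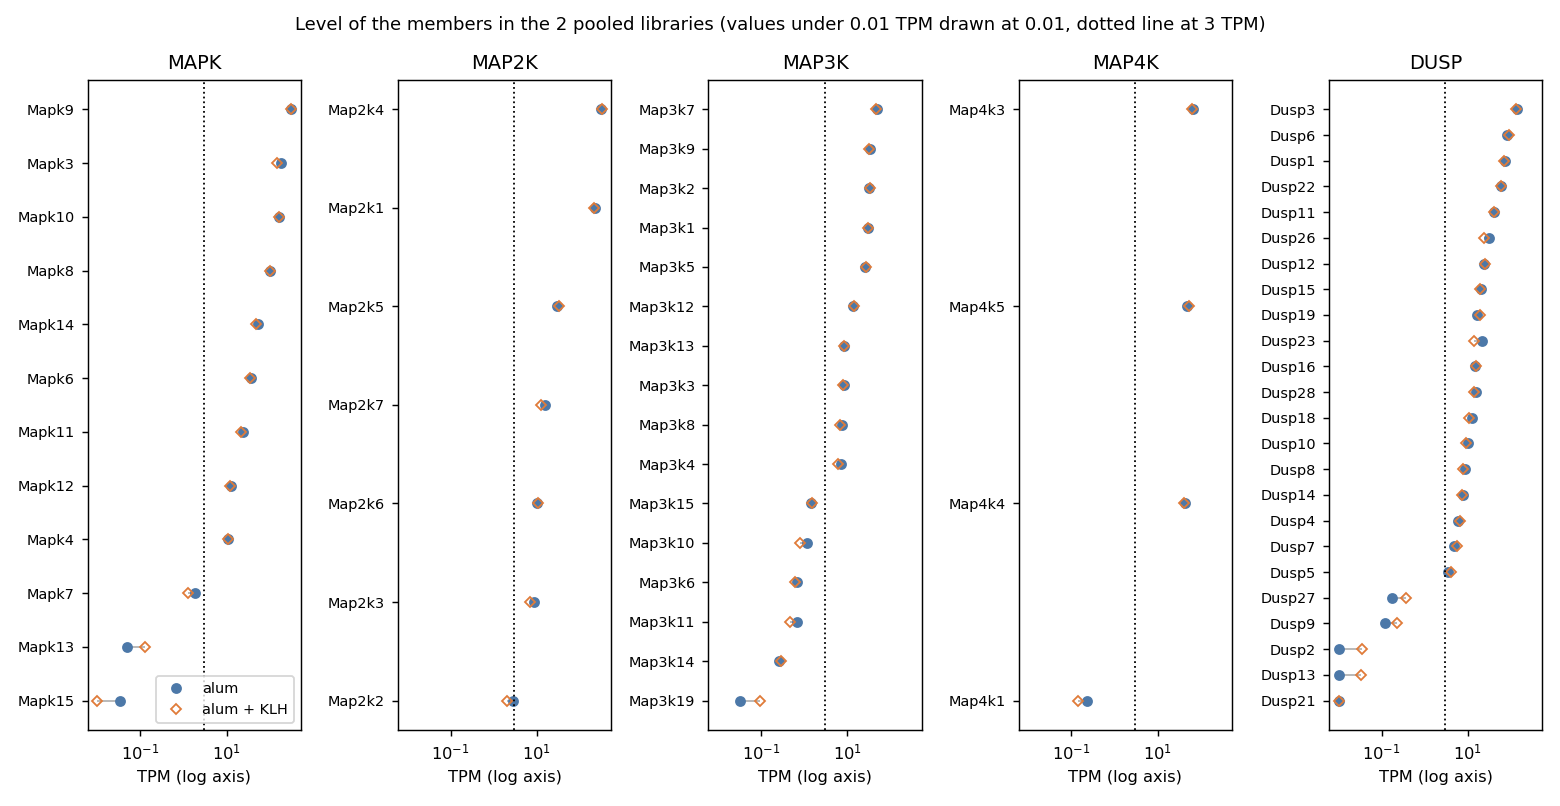
TPM (log axis) of 63 of the 65 members in the alum pool (filled circles) and the alum + KLH pool (open diamonds), 1 pooled library each, by family and ordered by mean level, with values under 0.01 TPM drawn at 0.01 and a dotted line at 3 TPM. The paired symbols nearly coincide for most members to the right of the line, and Map2k4 at 314 and 320 TPM is the highest of those drawn.

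In the ERK branch Mapk3 (ERK1), a terminal kinase of growth factor signaling, was at 184 TPM in alum and 149.7 TPM in alum + KLH, higher in the mean than 94.6% of all genes listed. On the scale of every ratio here, the log2 of TPM + 1 in the alum + KLH pool over TPM + 1 in the alum pool, Mapk3 had a ratio of -0.29.

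The JNK genes were nearly level between the pools. Mapk9 (JNK2) was listed at 312 and 316 TPM in alum and alum + KLH, Mapk10 (JNK3, the member most restricted to neurons) at 164 and 162 TPM, and Mapk8 (JNK1) at 103 and 104 TPM. Their log2 ratios were 0.02, -0.01 and 0.0043. Mapk9 held 53.9% and 54.3% of the JNK RNA, Mapk10 28.3% and 27.9%, and Mapk8 17.8% in both pools. The order Mapk9, Mapk10, Mapk8 was therefore the same in both libraries, with gaps far wider than the difference between pools.

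The p38 genes were lower in level. Mapk14 (p38 alpha) was at 54.7 and 49.5 TPM, Mapk11 (p38 beta) at 24.2 and 21.3 TPM, and Mapk12 (p38 gamma) at 12.6 and 12.3 TPM. Their ratios were -0.14, -0.18 and -0.03, or -0.12, -0.01 and 0.08 after GC centring (described below). Mapk13 (p38 delta) was at 0.0484 and 0.125 TPM. Mapk14 gave 59.8% and 59.5% of the p38 RNA. Of the MAP kinases outside these branches, Mapk6 (ERK3) was at 37.1 and 35.0 TPM and Mapk4 (ERK4) at 10.8 and 11.001 TPM. Mapk7 (ERK5, the target of Map2k5) was at 1.83 and 1.27 TPM, under the level for detection, and Mapk15 at 0.0337 and 0 TPM.

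Among the MAP2Ks the ERK kinases and the JNK kinases were each dominated by 1 gene. Map2k4 (MKK4, which phosphorylates JNK and p38) was at 314 and 320 TPM, and Map2k7 (MKK7, specific for JNK) at 15.4 and 12.7 TPM, so that Map2k4 formed 95.3% and 96.2% of their RNA. Map2k1 (MEK1, the ERK kinase) was at 222 and 214 TPM. Its paralogue Map2k2 (MEK2) was at 2.73 and 2.04 TPM and did not reach 3 TPM in either pool. The level of Map2k1 was 81.2 times that of Map2k2 in alum and 105 times in alum + KLH.

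The remaining MAP2Ks were at modest levels. Map2k5 (MEK5) was at 28.6 TPM in alum and 33.4 TPM in alum + KLH, above Mapk7, which encodes its substrate. The p38 kinases Map2k6 (MKK6) and Map2k3 (MKK3) were at 10.3 and 10.8 TPM and at 8.41 and 6.81 TPM. Map2k6 was thus the higher of the pair in both pools, with 55.0% and 61.4% of their RNA. The ratios were 0.03 for Map2k4, -0.05 for Map2k1, 0.21 for Map2k5, -0.26 for Map2k7, 0.07 for Map2k6 and -0.27 for Map2k3. For Map2k7, 70.3% of its 31-base words (the default word length of kallisto, the tool behind the TPM) also occur in other genes of GENCODE M21. Whether those genes were among the transcripts given to kallisto was not checked, so the split of its reads may be uncertain.

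Of the 16 MAP3K genes, 10 were detected. Map3k7 (TAK1, which acts downstream of cytokine receptors) was highest at 49.8 and 47.8 TPM, and Map3k9 (MLK1, a mixed-lineage kinase) came next in the mean at 34.7 and 31.5 TPM. Map3k7 had a ratio of -0.06 and Map3k9 of -0.13. Of the MEKK group, Map3k2 (MEKK2, upstream of MEK5) was at 32.0 and 33.7 TPM, Map3k1 (MEKK1) at 30.9 and 30.4 TPM, Map3k3 (MEKK3) at 8.32 and 8.18 TPM, and Map3k4 (MEKK4) at 7.20 and 6.09 TPM. Map3k4 had the largest ratio among the MAP3Ks tested, -0.21. The group summed to 78.5 and 78.3 TPM.

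Map3k5 (ASK1, a kinase activated by oxidative stress) was at 26.5 and 27.02 TPM. Map3k12 (DLK, known for injury signaling in axons of sensory neurons) was at 13.6 and 14.1 TPM, and its relative Map3k13 (LZK) at 8.37 and 8.28 TPM. Map3k12 was 1.63 and 1.70 times the level of Map3k13, and their ratios were 0.04 and -0.01. Map3k8 (TPL2, which links inflammatory signals to MEK) was at 7.56 and 6.92 TPM. The other 6 were under 3 TPM in both pools, led by Map3k15 (ASK3) at 1.41 and 1.52 TPM and Map3k10 (MLK2) at 1.15 and 0.793 TPM. Map3k11, Map3k6, Map3k14 and Map3k19 stayed under 1 TPM.

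Of the MAP4Ks, 4 of 5 were detected. Map4k3 (GLK) was at 64.9 and 63.0 TPM, Map4k5 (KHS1) at 49.3 and 52.6 TPM, and Map4k4 (HGK) at 44.4 and 40.9 TPM. Their ratios were -0.04, 0.09 and -0.11. Map4k1 (HPK1), the member known from blood cells, was at 0.236 and 0.142 TPM.

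The 10 MKPs summed to 201 TPM in alum and 208 TPM in alum + KLH, and 8 of them were detected. Dusp6 (MKP3, a cytoplasmic phosphatase of ERK that ERK signaling itself induces) was the highest MKP, at 79.6 TPM in alum and 90.3 TPM in alum + KLH. Dusp1 (MKP1, a nuclear phosphatase encoded by an immediate early gene) was at 73.7 and 68.4 TPM. Their ratios were 0.18 and -0.11, or 0.20 and 0.0017 after GC centring (described below). In the nuclear group with Dusp1, Dusp4 was at 6.00 and 6.74 TPM, Dusp5 at 3.45 and 4.15 TPM, and Dusp2 at 0 and 0.0351 TPM.

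The other MKPs were at low levels. Dusp7 (MKPX), a relative of Dusp6, was at 4.81 and 5.51 TPM with a ratio of 0.17, and Dusp9 (MKP4) at 0.120 and 0.223 TPM. Of the phosphatases directed at JNK and p38, Dusp16 (MKP7) was at 14.8 and 15.7 TPM, Dusp10 (MKP5) at 9.95 and 8.86 TPM, and Dusp8 at 8.35 and 7.72 TPM. Thus 5 of the 8 detected MKPs were listed higher and 3 lower in alum + KLH, with ratios from -0.15 to 0.21 and a median of 0.11. The split was 4 and 4 when scaled to Hprt, a housekeeping gene, and 7 and 1 after GC centring. Of all genes tested, 56.3% were listed lower before such scaling, and GC centring splits them about evenly by construction. Dusp4, Dusp5 and Dusp7, among those listed higher, were at low levels.

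The 14 atypical DUSPs summed to 381 and 360.1 TPM, more than the MKPs, and 11 were detected. Dusp3 (VHR, a small phosphatase that acts on ERK and JNK) was the highest DUSP of all, at 134 TPM in alum and 128 TPM in alum + KLH, a ratio of -0.07. Dusp22 (JKAP) was at 58.3 and 58.6 TPM, Dusp11 (which removes phosphates from the 5′ end of RNA) at 40.5 and 40.0 TPM, and Dusp12 at 24.01 and 25.5 TPM. Dusp26, a phosphatase enriched in neural tissue, was at 30.4 TPM in alum and 23.7 TPM in alum + KLH. Dusp23 (VHZ, among the smallest phosphatases of the family) was at 21.3 TPM in alum and 13.8 TPM in alum + KLH. Dusp19 (SKRP1, described as a regulator of JNK signaling) was at 16.1 TPM in alum and 19.3 TPM in alum + KLH.

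The other 4 detected atypical DUSPs were at modest levels. Dusp15 (VHY) was at 19.8 and 19.2 TPM, Dusp28 at 15.1 and 13.8 TPM, Dusp18 at 12.7 and 10.5 TPM, and Dusp14 (MKP6) at 7.87 and 7.22 TPM. Dusp27 at 0.171 and 0.374 TPM, Dusp13 at 0 and 0.0323 TPM and Dusp21, at 0 in both pools, were not detected. Of the 11 detected, 3 were listed higher and 8 lower in alum + KLH, a split that was 5 and 6 after GC centring and 2 and 9 relative to Hprt.

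The comparison of the pools was restricted to genes with a mean above 3 TPM over both libraries, which all 49 detected members passed, as did 11382 genes in all. Member ratios had a median of -0.027 and ran from -0.59 to 0.24, against a median of -0.019 over all genes tested. Of the 49 members, 30 (61.2%) were listed lower in alum + KLH, as were 56.3% of all genes, and 47 (95.9%) lay within 0.3 of 0, as did 92.0% of all genes. The split of 19 higher and 30 lower was 8 and 41 relative to Hprt (989 and 1049 TPM) and 25 and 24 after GC centring. The ratios of the summed families were -0.05 for MAPK, -0.0028 for MAP2K, -0.04 for MAP3K, -0.015 for MAP4K and -0.03 for DUSP. The signs for MAP2K and MAP4K turned, to 0.018 and 0.0055, when the pools were rescaled by their median ratio. Family totals were not GC centred, but the DUSP members tested, 8 higher and 11 lower, split 12 and 7 after GC centring. The MAP3K members tested went from 3 and 7 to 5 and 5. No direction is therefore given for any of these families. Each of the 5 families held ratios of both signs, except that relative to Hprt all 10 MAPK and all 10 MAP3K ratios were below 0.

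Few members reached a large difference. At a fold of at least 1.5, 0 members were higher in alum + KLH, where 0.641% of all genes tested were, and 1 was lower, where 1.24% were. At a fold of at least 2, 0 members were higher (0.395% of genes) and 0 lower (0.703% of genes). The members' counts thus stood close to the background.

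**Figure D2:**
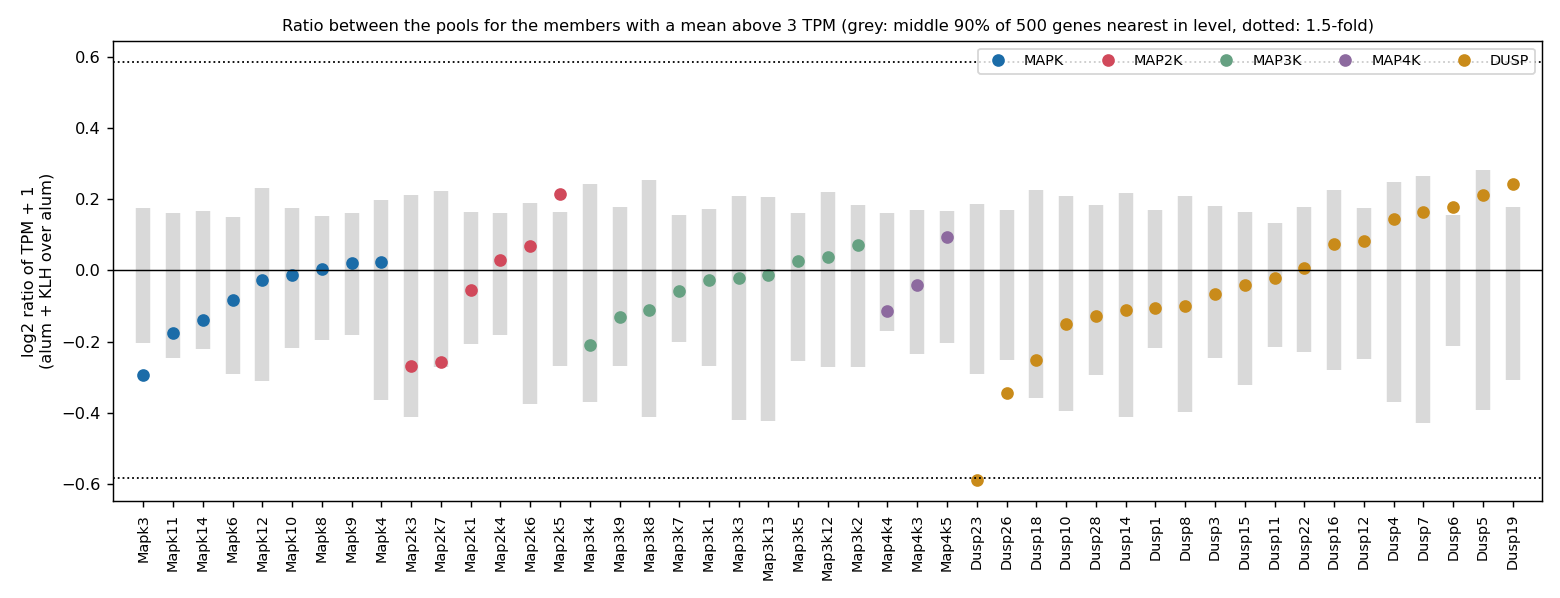
Log2 ratio of alum + KLH over alum, on TPM + 1, for 47 of the 49 members tested, coloured by family, with grey bars for the middle 90% of the 500 genes closest in mean level and dotted lines at 1.5-fold. Dusp23 at -0.59 alone reaches a dotted line, and 6 members lie outside their grey bar.

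The gene past 1.5-fold was Dusp23 (chr1:172630764-172632962, mm10), with 21.3 TPM in alum, 13.8 TPM in alum + KLH and a ratio of -0.59, or 1.51-fold lower. To gauge ratios at a like level, the 500 genes closest in mean TPM were taken for each member, and the middle 90% of their ratios was noted as a description of these libraries. For Dusp23 this range was -0.29 to 0.19. Other members outside their own range on the lower side were Dusp26 at -0.35 (range -0.25 to 0.17) and Mapk3 at -0.29 (range -0.20 to 0.18). On the higher side were Dusp19 at 0.24 (range to 0.18), Map2k5 at 0.21 (range to 0.16) and Dusp6 at 0.18 (range to 0.16). These were 6 of 49 members, where 10% of the neighbours lie outside by construction.

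Of the 10 members with the largest ratios, which do not include Dusp6, the other 5 lay inside that range. They were Map2k3 at -0.27, Map2k7 at -0.26, Dusp18 at -0.25, Dusp5 at 0.21 and Map3k4 at -0.21. Dusp5 lay just above the detection level and Dusp18 at 12.7 and 10.5 TPM, so small shifts in TPM make up these ratios.

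GC content of the transcripts moved with the ratios across all genes. Over 11245 tested genes with a matched transcript, GC percent and log2 ratio had a Spearman rho of -0.47 and a Pearson r of -0.22, the points sharing the same 2 libraries. In 20 equal bins of GC, the median ratio went from 0.085 at 38.3% GC to -0.21 at 59.5% GC. Over the 49 members rho was -0.33 and r -0.32. The 31 members at or above the median GC of 48.7% had a median ratio of -0.054 and the 18 below it of -0.0048, beside -0.078 and 0.026 for all genes split the same way.

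**Figure D3:**
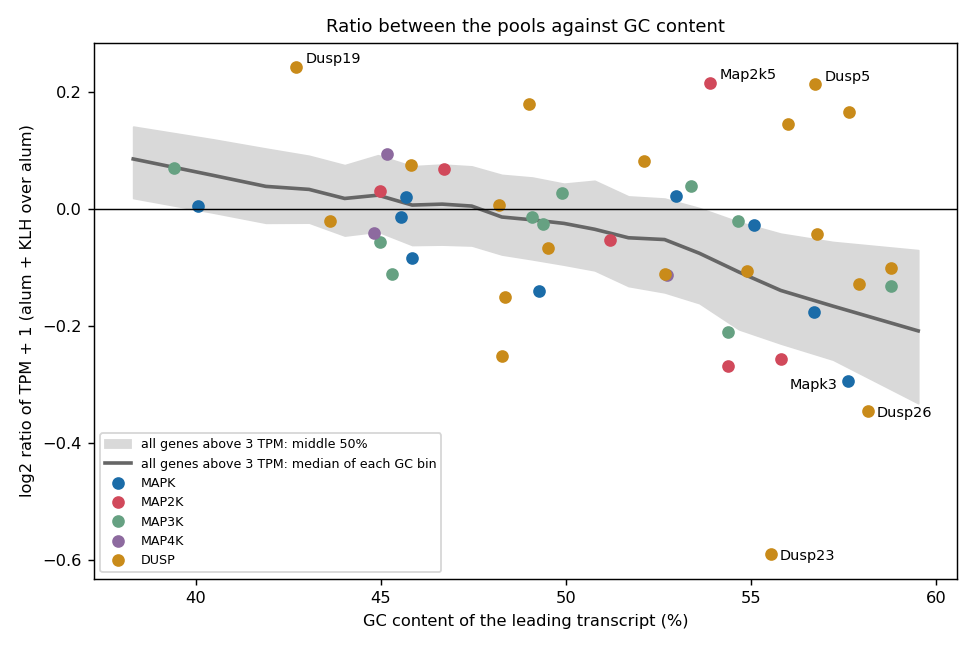
Log2 ratio of alum + KLH over alum (on TPM + 1) against transcript GC percent for 47 of the 49 members tested, coloured by family, over the median (line) and the middle 50% (band) of all tested genes in 20 GC bins. The line goes from 0.085 in the lowest bin to -0.21 in the highest, and Mapk3 and Dusp26 sit at the GC-rich end at -0.29 and -0.35.

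Mapk3 (57.6% GC), Dusp26 (58.2%) and Dusp23 (55.5%) all stood at the GC-rich end. With the median of each GC bin subtracted, an alternative added after the data had been seen, Mapk3 was at -0.13, Dusp26 at -0.14 and Dusp23 at -0.45, so that no member remained at 1.5-fold. Dusp19 (42.7% GC) was then at 0.21, Map2k5 (53.9%) at 0.29 and Dusp6 (49.0%) at 0.20. The highest tested members after centring were Dusp5 at 0.38 and Dusp7 at 0.33, both at low levels. Dusp4, likewise low, was at 0.28. The members left undetected were also GC-rich, with a median of 58.4% (45.1% to 64.9%) against 51.2% for the detected members. Map2k2, undetected beside the abundant Map2k1, had 60.4% GC against 51.2% for Map2k1. The part of GC content in the low levels was not tested.

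Below the gene level, the JNK genes carried the alternative exons best known for this family. Mapk9 has a pair of mutually exclusive exons of 72 bases in the kinase domain, of which every transcript holds 1. They are shown because their balance could be read in both pools, with capitals at the 25 bases that differ, on the plus strand of mm10.
Mapk9 exon at chr11:49873836-49873907: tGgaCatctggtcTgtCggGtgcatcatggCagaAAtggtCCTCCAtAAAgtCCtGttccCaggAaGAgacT
Mapk9 exon at chr11:49874264-49874335: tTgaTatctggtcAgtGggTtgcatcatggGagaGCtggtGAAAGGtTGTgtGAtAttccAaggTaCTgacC
Transcripts with the upstream exon made up 27.8% of Mapk9 TPM in alum and 26.9% in alum + KLH, and those with the downstream exon 72.2% and 73.1%. The balance of this exon pair was nearly equal in the pools.

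Both Mapk9 and Mapk10 also have a pair of splice acceptors 5 bases apart at the last coding exon. The bases shown run from the upstream acceptor to the end of its short reading frame, with the 5 added bases in capitals, and over the first 25 bases after the downstream acceptor, which opens the long reading frame. Mapk10 is on the minus strand, and both are printed 5′ to 3′ as transcribed.
Mapk9 upstream acceptor, chr11:49883142-49883155: CACAGatgcagcag
Mapk9 downstream acceptor, chr11:49883147-49883171: atgcagcagtaagtagcaaggctac
Mapk10 upstream acceptor, chr5:102913319-102913332: CACAGgtgcagcag
Mapk10 downstream acceptor, chr5:102913303-102913327: gtgcagcagtgaacagcagtgagag
The same 5 bases are added in both genes, and the frame shift that they cause ends the protein early, which gives the short forms of JNK2 and JNK3. The coding length was 1143 against 1269 bases for Mapk9 and 1266 against 1392 bases for Mapk10.

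The balance of these ends was read with less certainty. Long-end transcripts made up 76.8% of Mapk9 TPM in alum and 80.7% in alum + KLH. For Mapk10 the long-end row was at 112 and 74.3 TPM and the short-end row at 51.4 and 87.9 TPM, so that the long end was 68.6% of the gene in alum and 45.8% in alum + KLH, at gene totals of 164 and 162 TPM. The row ratios were -0.59 and 0.76. Only 27 of the 7166 words of 31 bases in the long-end row and 34 of the 7173 in the short-end row are absent from the other row. For Mapk9 none of the 4 rows has such a word, since each row combines an exon choice with an end.

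**Figure D4:**
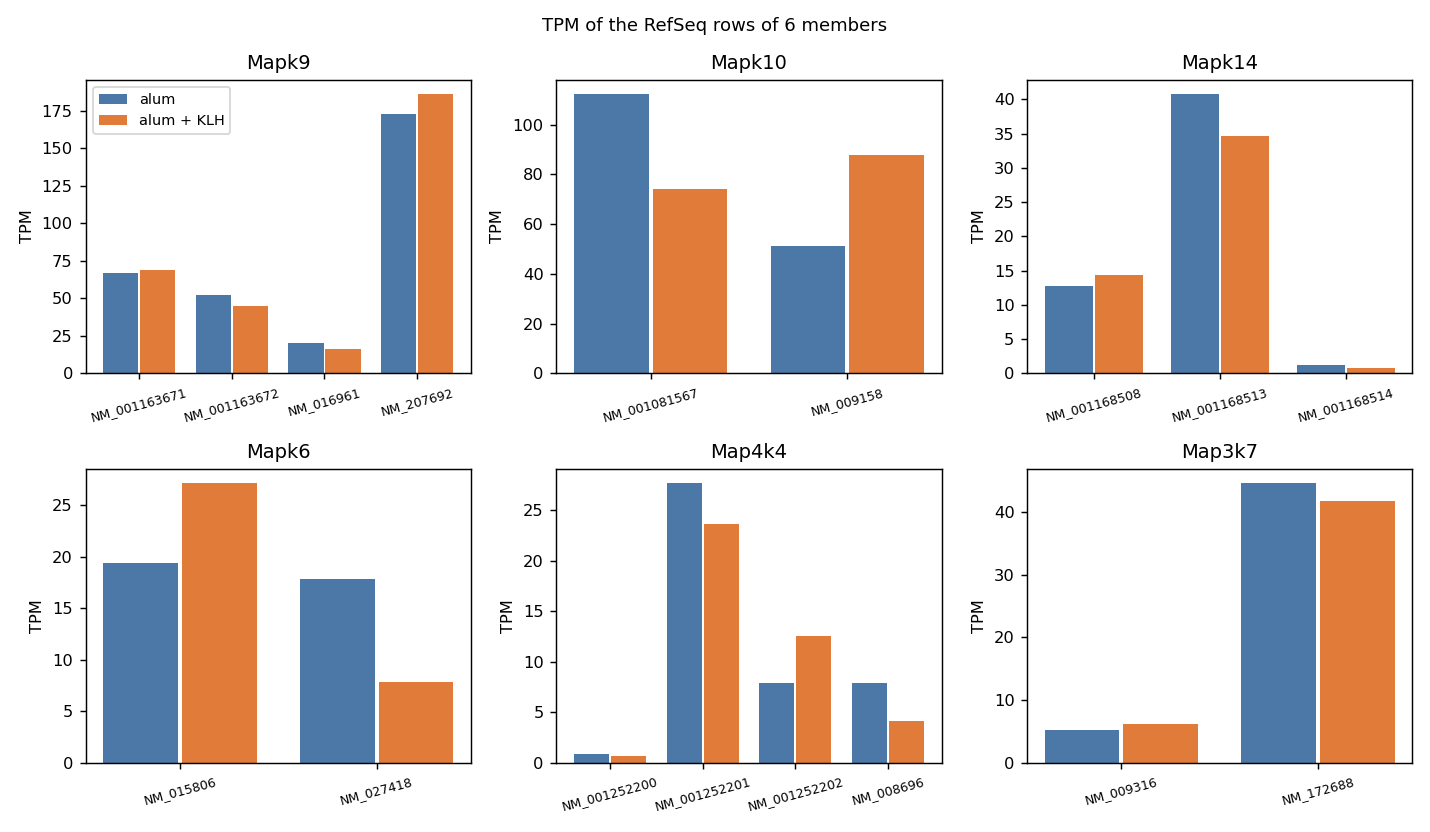
Bars give TPM in alum (blue) and alum + KLH (orange), 1 pooled library each, for the RefSeq transcript rows of 6 members, leaving out rows at 0, with a separate axis from 0 for each gene. The Mapk10 rows change order between the pools (112 and 51.4 TPM in alum, 74.3 and 87.9 TPM in alum + KLH), the Mapk6 rows lie further apart in alum + KLH, and the rows of Mapk9, Mapk14 and Map3k7 keep their order.

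In other MAP kinase genes some rows share their coding length. Both Mapk6 rows have a coding length of 2160 bases, and NM_015806 was at 19.3 and 27.2 TPM where NM_027418 was at 17.8 and 7.81 TPM. The latter row had a ratio of -1.09 while Mapk6 as a whole had -0.08. Only 142 of the 4042 words of 31 bases in NM_015806 and 159 of the 4059 in NM_027418 are absent from the other row. The split between the Mapk6 rows is therefore uncertain. Mapk14 was read mainly from NM_001168513, an annotated transcript with a shorter coding length of 849 bases, at 40.8 and 34.6 TPM. Of the rows with the longer coding length of 1080 bases, NM_001168508 was at 12.7 and 14.3 TPM and NM_011951 at 0 in both pools. NM_011951 has no 31-base word that is absent from the other rows of the gene, so the split among the Mapk14 rows is uncertain.

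Among the upper kinases and phosphatases the leading row was the same in both pools for each gene with more than 1 row at this level. For Map4k4, NM_001252201 led with 27.7 and 23.6 TPM, NM_001252202 was at 7.93 and 12.5 TPM and NM_008696 at 7.90 and 4.13 TPM. For Map3k7, NM_172688 gave 89.7% and 87.2% of the TPM. For Map3k9 the rows were at 30.9 and 28.8 TPM and at 3.75 and 2.75 TPM, and both match a single GENCODE transcript. For Dusp22, Dusp15 and Dusp16 the leading rows gave 63.6% and 64.7%, 61.3% and 66.2%, and 65.8% and 71.4%. How kallisto divided reads among rows is already contained in these values.

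Genes of the same pathway outside the naming rule were read from lists chosen with earlier results known. Among those with a mean above 3 TPM, none reached 1.5-fold in either direction. Over all genes tested, 0.641% were that much higher and 1.24% that much lower. The absence of calls in lists of this size is thus close to the background. Of 26 RAS, RAF and adaptor genes upstream of ERK, 23 were tested, with a median ratio of -0.01 beside -0.019 for all genes. Rap1b, a small GTPase that can activate B-RAF, was at 532 and 575 TPM and Araf, a RAF kinase, at 368 and 373 TPM. Of 15 scaffolds and anchors, 13 were tested, 1 listed higher and 12 lower, with a median of -0.11 that was -0.02 after GC centring. The split was 2 and 11 after GC centring and 0 and 13 relative to Hprt. Without such scaling, 56.3% of all genes tested were listed lower. Spag9 (JIP4, a JNK scaffold) was at 327 and 335 TPM and Lamtor3 (MP1, which holds MEK1 and ERK1 at endosomes) at 82.2 TPM in both.

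Of 11 kinases activated by MAP kinases, 8 were tested, with a median of -0.05. After GC centring the median was 0.0082, with 4 listed higher and 4 lower. Rps6ka3 (RSK2) was at 288 and 305 TPM and Rps6ka5 (MSK1) at 40.2 and 43.4 TPM, ahead of the other members of the list. Of 14 genes on a mixed list of ERK pathway regulators outside the DUSP family, 10 were tested, 8 listed higher and 2 lower, with a median of 0.08. Relative to Hprt this split was 5 and 5, and after GC centring it was 8 and 2. Of all genes tested, 56.3% were listed lower. Pea15a, which holds ERK in the cytoplasm, was at 335 and 306 TPM, and Pebp1 (RKIP, an inhibitor of RAF) at 156 and 176 TPM.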

How the data were processed

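Stranded mRNA libraries, 1 per group from the pooled DRG neurons of 10 mice, were sequenced by the authors, demultiplexed with bcl2fastq, trimmed with cutadapt and quantified with kallisto against annotated mm10 transcripts. Tool versions are not given in the sources used here. Each deposited table gives TPM for RefSeq transcript rows. TPM is corrected for transcript length and scaled to a fixed sum per library, so the values keep no read counts and no counting interval was computed.

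From these values TPM were summed per symbol (Python 3.11.15, pandas 2.3.3, numpy 2.4.6). Detection was set at 3 TPM. Ratios were the log2 of TPM + 1 in the alum + KLH pool over TPM + 1 in the alum pool, which understates changes of low genes, for genes with a mean above 3 TPM. Calls were folds of 1.5 and 2, with no test, since each group is 1 library. The ratio, calls and GC centring were tried on simulated pools, with changes of at least 2-fold placed in genes above 10 TPM. The noise was set lower than the median SD of 0.185 among genes of like level. Changes near 1.5-fold, changed genes near 3 TPM and the filter were not tried. Of the rows, 33267 of 35034, and all 97 of the members, matched a GENCODE M21 transcript of GRCm38, which gave GC content, positions, 31-base words and sequences (biopython 1.88).

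Every member is in the counts and sums, and 2 of them are not reported singly here. Values with ratios were given for the top pair of each family, members past 1.5-fold, the 10 largest ratios and fixed paralogues, and rows where a pair of a member's rows each had a mean above 3 TPM. Members, lists and markers were chosen with earlier results of these data known. The alternatives were pseudocounts of 0.1 and 0.5 TPM, other filters, rescaling to the median between-pool ratio (0.986) or to Hprt, the highest row of each gene and a fold of 2. Centring within 20 GC bins was added after the data had been seen.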

Additional observations from a re-analysis of the deposited data

How the results depend on the processing

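The count of members at least 1.5-fold lower in alum + KLH, 1 (Dusp23), became 0 with the pools rescaled by their median ratio, 0 at a fold of 2, 0 when centred within 20 GC bins and 2 with the highest single row of each gene, where Mapk10 joined Dusp23 at -0.59. Dusp23 itself ran from -0.67 to -0.45 over the alternatives. The count of members 1.5-fold higher was 0 under every alternative run. The family totals, the median ratio and the count of detected members (49, or 52 above 1 TPM and 37 above 10 TPM) moved by less than the yardsticks used, the median SD of 0.185 among genes of like level or 1.5 times a count. Among named genes, 6 values moved by more: under GC centring Mapk3 was at -0.13, Dusp26 at -0.14, Map2k2 at -0.09 and Map3k9 at 0.08, and on the highest row Map3k12 was at -0.28 and Mapk10 at -0.59. The other 144 did not. For the family totals and the median ratio, the yardstick of 0.185 is larger than the values themselves. A change of sign, as for the MAP2K and MAP4K totals, therefore still counted as no move, so this comparison says little about their direction. The family totals were not run under GC centring. No paired analysis was possible because each group is 1 library of 10 pooled mice with no shared replicate number. Leaving out a library was likewise not possible. The files give no read counts per gene, so no counting interval was set on members near or under 3 TPM. For Map2k7, Dusp12, Map3k12 and Dusp5, 70.3%, 49.6%, 27.2% and 21.2% of the 31-base words occur in other genes of GENCODE M21.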

Other observations

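Kinases of the STE20 and mixed-lineage groups that bear other names were read beside the members. Of 16, 14 were tested, 8 listed higher and 6 lower, and 0 in either direction at 1.5-fold, with a median ratio of 0.0046. The split was 3 and 11 relative to Hprt and 6 and 8 after GC centring. Stk39 (SPAK, which acts on ion cotransporters) was at 329 TPM in alum and 344 TPM in alum + KLH, above every MAP3K and MAP4K member, and Pak1 (a kinase switched on by RAC and CDC42) at 159.9 and 171 TPM.

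Transcription factors that MAP kinases phosphorylate ranged widely in level. Of 24, 22 were tested, 7 listed higher and 15 lower, and 0 in either direction at 1.5-fold, with a median ratio of -0.09 that was -0.04 after GC centring. Relative to Hprt the split was 3 and 19, and after GC centring it was 8 and 14. Without such scaling, 56.3% of all genes tested were listed lower. The most abundant pair were Fos, an immediate early gene, at 454 and 417 TPM and Atf3, an injury-induced factor in sensory neurons, at 238 and 219 TPM in alum and alum + KLH, and Etv4 was at 0.330 and 0.283 TPM.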
